A study of Mus musculus with 3 samples.

Results

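The comparison described here set CD4+ T cells deleted for MyD88 against wild-type (WT) cells, across the whole deposited gene table. The table held 23283 entries, of which 7933 reached 5 FPKM (fragments per kilobase, normalized to library size) in at least 1 of the 2 libraries and were compared. Each gene is given by its FPKM in MyD88 T-KO and then in WT, and by the log2 ratio of MyD88 T-KO over WT after 1 FPKM was added to each value, so a negative ratio means lower in the knockout library. Another 8262 entries were at 0 in both libraries and 7088 lay below 5 FPKM.

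Mice of both groups were C57BL/6 and received the same immunization, 2W1S peptide emulsified with the Toll-like receptor 4 agonist LPS in incomplete Freund's adjuvant (IFA), into the footpads. On day 7, CD4+ cells binding 2W:I-A(b), the peptide on its MHC class II molecule, were sorted from the popliteal and inguinal nodes. The WT library came from wild-type mice, and the MyD88 T-KO library from mice labelled Myd88 -/- with the deletion made in T cells only, per the series title. The sources used here do not name the Cre driver, the deleted exons or the age and sex of the mice. Cells of 4 experiments and 15 to 30 mice per genotype were pooled into 1 library each, so the values carry no measure of the variation between mice, there is no test of any difference, and the intervals below cover counting error only. The estimated depth was 21.7 M fragments in MyD88 T-KO and 22.7 M in WT.

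MyD88 is the cytosolic adaptor that receptors of the IL-1 family, such as those for IL-1, IL-18 and IL-33, and most Toll-like receptors recruit once they bind ligand. It assembles IRAK kinases, which act through TRAF6 and the kinase TAK1 on the IkB kinases and on MAP kinases, so that NF-kB and AP-1 factors are activated. In T cells this pathway is best known for the response to IL-1, which promotes the Th17 program, and to IL-18, which raises IFN-gamma production in Th1 cells.

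Myd88 (chromosome 9, 119335988 to 119340040, mm10) was at 49.8 FPKM in WT and 19.5 FPKM in MyD88 T-KO, a ratio of -1.31. WT was 2.55 times higher on the FPKM themselves, with a 95% counting interval of 2.35 to 2.77. The transcript was thus lower, in the direction of the label, but not at 0. The value covers the whole gene and does not separate deleted from retained exons. The T cell identity of both libraries was clear in the defining markers: Cd3e, a chain of the T cell receptor complex, was at 749 and 711 FPKM, and Cd4 at 462 and 415 FPKM. The 30 genes of the T cell receptor complex and its proximal signalling, all tested, had 15 ratios above 0 and 15 below, a median of -0.01 and a range of -0.25 to 0.26.

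Across all 7933 entries the libraries were close. The median ratio was 0.01, with 4324 entries (54.5%) above 0 and 3609 below, and 61.1% lay within 0.1 of equality and 90.7% within 0.25. By a fold of at least 1.5 on the scale with 1 FPKM added, 71 entries (0.895%) were lower in MyD88 T-KO and 79 (0.996%) higher. By a fold of at least 2, 19 (0.24%) were lower and 15 (0.189%) higher. Small RNA, predicted and several-symbol entries were left out of a count by level. Among the 1389 genes with a geometric mean of at least 50 FPKM over both libraries, 14 were lower and 3 higher by 1.5-fold.

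**Figure D1:**
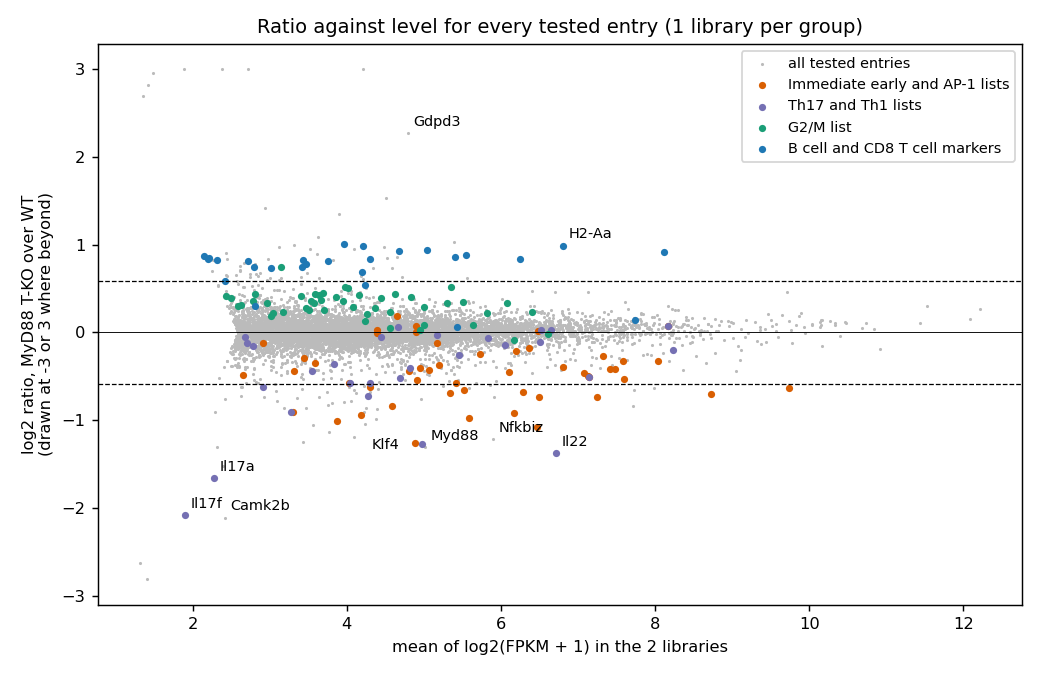
Log2 ratio of MyD88 T-KO over WT (y axis) against the mean of log2(FPKM + 1) in both libraries (x axis) for the 7933 tested entries, with dashed lines at 1.5-fold and entries beyond a ratio of 3 drawn at the edge. Most immediate early and AP-1 genes lie below 0, the abundant ones included, and most G2/M genes and B cell markers above 0.

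The 2 called sets also differed in what they held. The lists were chosen with earlier results of these data known, so the shares below describe the sets and test nothing. Of the 71 lower entries, 21 (29.6%) stood on the lists of immediate early genes, AP-1 factors, dual-specificity phosphatases, feedback regulators or NF-kB proteins, which hold 94 (1.18%) of all tested entries. Another view is by the helper cytokine lists (Th1, Th2, Th17 and secreted factors), which held 11 (15.5%) of the lower entries and 53 (0.668%) of all tested. Of the 79 higher entries, 28 (35.4%) stood on lists of markers of other cells, 21 of them on the B cell list, against 45 (0.567%) of all tested. Small RNA genes are measured poorly by polyA selection and length-scaled FPKM. They made up 6 (8.45%) of the lower and 8 (10.1%) of the higher entries, against 21 (0.265%) of all tested.

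**Figure D2:**
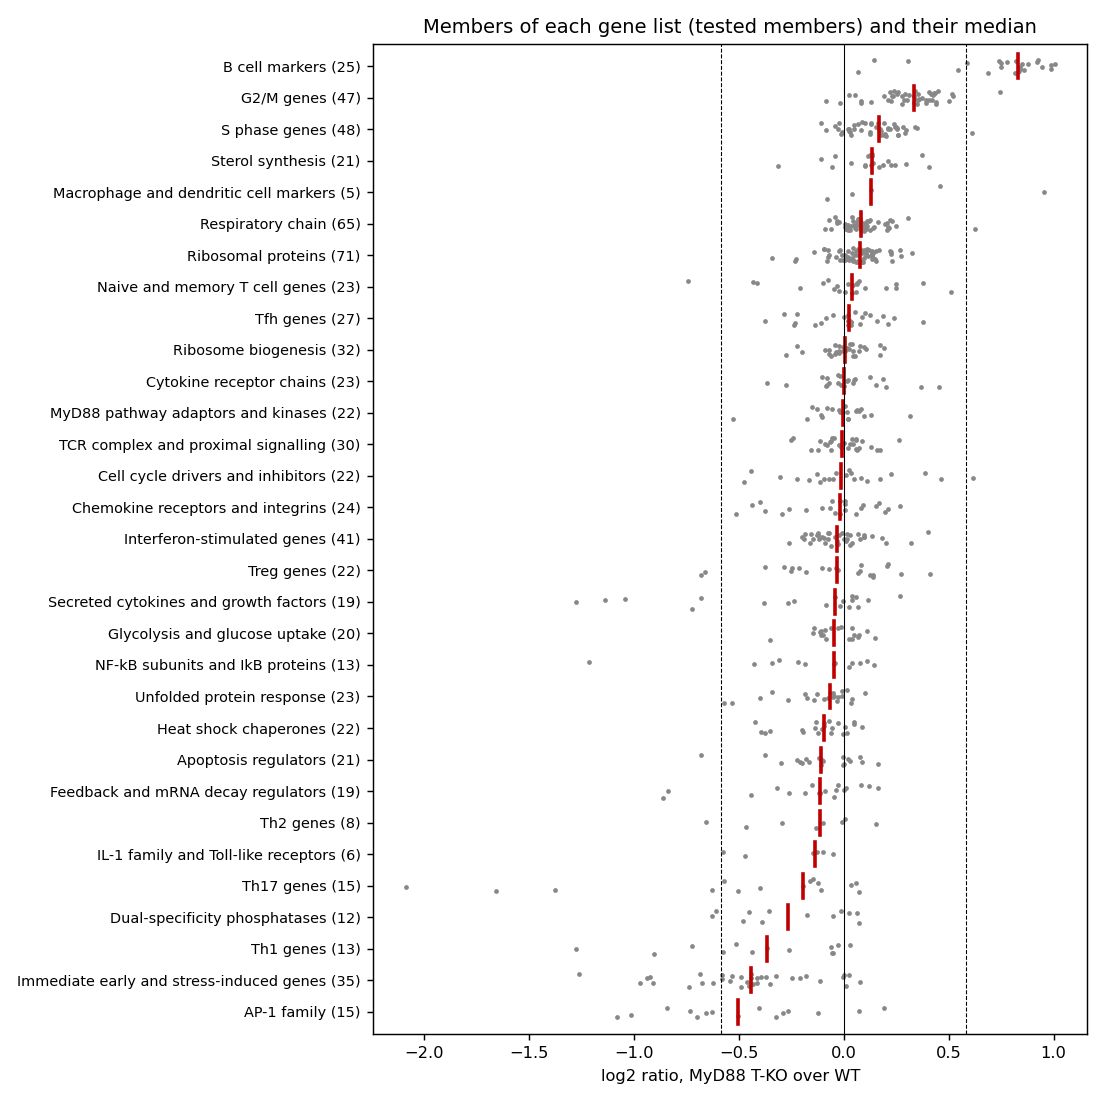
Log2 ratio of MyD88 T-KO over WT (x axis) for each tested member (grey points) of the gene lists with at least 5 tested members, ordered by median (red bar), with the number of tested members in parentheses and dashed lines at 1.5-fold. The AP-1 list has the lowest median, -0.50, and the B cell list the highest, 0.83.

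Receptors that signal through MyD88 were few at the 5 FPKM level. Of 22 genes on the list of IL-1 family and Toll-like receptors and their accessory chains, 6 were tested. All 6 had ratios below 0, with a median of -0.14 and no member past 1.5-fold with 1 FPKM added. Il18r1, the ligand-binding chain of the IL-18 receptor, was at 15.1 FPKM in MyD88 T-KO and 23.1 in WT, a ratio of -0.58. On the FPKM themselves WT was 1.52 times higher for Il18r1 (counting interval 1.42 to 1.63). The partner chain Il18rap stayed below the minimum, at 2.89 and 4.88 FPKM. Il1r2, a decoy receptor that binds IL-1 without signalling, was at 21.6 and 30.3 FPKM, a ratio of -0.47. The IL-1 receptor itself differed less. Il1r1 was at 62.4 and 69.1 FPKM, a ratio of -0.14, and the shared accessory chain Il1rap at 4.64 and 4.86 FPKM. Tlr1 was the most abundant Toll-like receptor transcript at 25.6 and 26.5 FPKM, and Tlr4, the LPS receptor, was at 0.608 and 0.507 FPKM. The IL-33 receptor Il1rl1 was at 2.27 and 2.09 FPKM.

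Downstream of the receptors, the signalling machinery was nearly level between the libraries. The 22 tested adaptors and kinases of the pathway, of 29 on the list, were divided 11 above and 11 below 0, with a median of 0.00. Irak4, the first kinase recruited by MyD88, was at 21.3 and 20.04 FPKM, a ratio of 0.08, Irak2 at 8.05 and 8.42 FPKM, and the ubiquitin ligase Traf6 at 12.1 and 12.0 FPKM. The lowest ratio was that of Map3k8, which encodes the MAP kinase kinase kinase TPL2, at 7.97 and 11.9 FPKM (-0.53). The highest was that of Irf5, a transcription factor that binds MyD88, at 10.4 and 8.18 FPKM (0.32). No member passed 1.5-fold.

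Among NF-kB subunits and IkB proteins, Nfkbiz was the member lower by 1.5-fold. Of 14 genes 13 were tested, 8 below 0 and 5 above, with a median of -0.05. Against 0.895% of all tested entries, 1 was lower by 1.5-fold. Nfkbiz, whose product IkB-zeta is an inducible nuclear cofactor of NF-kB that also acts in Th17 differentiation, was at 38.1 FPKM in MyD88 T-KO and 89.8 in WT, a ratio of -1.21. WT was 2.36 times higher (counting interval 2.26 to 2.45). Nfkbia, which encodes the classical inhibitor IkB-alpha, was at 283 and 382 FPKM, a ratio of -0.43. Bcl3 and Nfkbid, further nuclear IkB proteins, had ratios of -0.34 and -0.31. Nfkbie, another inhibitor, was at 17.7 and 17.2 FPKM (0.04). Of the subunit genes, Nfkb1 had a ratio of 0.08, Rela 0.03, Nfkb2 -0.04, Rel -0.18 and Relb -0.22. Summed over the list, FPKM were 708 in MyD88 T-KO and 879 in WT.

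Negative regulators that these pathways induce were lower in part. Of 21 feedback and mRNA decay regulators 19 were tested, 14 below 0 and 5 above, with a median of -0.11. Against 0.895% of all tested entries, 2 were lower by 1.5-fold. Tnfaip3, which encodes the ubiquitin-editing enzyme A20, was at 156 and 279 FPKM, a ratio of -0.84, and WT was 1.79 times higher (counting interval 1.75 to 1.83). Zc3h12a, which encodes the RNase Regnase-1 that degrades cytokine transcripts, was at 13.1 and 24.7 FPKM, a ratio of -0.86. Zfp36, which encodes the mRNA decay factor tristetraprolin, was at 453 and 616 FPKM, a ratio of -0.44. At the other end, Rc3h2 (roquin-2) and Otud7b, a deubiquitinase, had ratios of 0.16 and 0.12.

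AP-1 factors were the list with the lowest median. Of 21 members 15 were tested, 13 below 0 and 2 above, with a median of -0.50, and 7 were lower by 1.5-fold, against 0.895% of all tested entries. Fosb was at 59.7 FPKM in MyD88 T-KO and 127 in WT, a ratio of -1.08, with WT 2.13 times higher (counting interval 2.06 to 2.21). Fosl2, whose product Fra-2 acts in Th17 cells, was at 9.33 and 19.9 FPKM, a ratio of -1.01. The most abundant members were lower by smaller folds. Junb was at 686 and 1061 FPKM (-0.63), Fos at 331 and 538 FPKM (-0.70) and Jun at 116 and 194 FPKM (-0.73). Batf, a partner of IRF4 needed for Th17 and Tfh cells, was at 117 and 167 FPKM (-0.50). The exceptions were the large Maf gene Maf (295 and 280 FPKM) and the small Maf gene Mafg (26.0 and 22.6 FPKM), with ratios of 0.07 and 0.19. Other small Maf genes were lower, Maff at 16.9 and 31.1 FPKM (-0.84) and Mafk at 25.8 and 34.5 FPKM (-0.41). Summed over the list, FPKM were 2118 in MyD88 T-KO and 3023 in WT.

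Immediate early and stress-induced genes, whose transcription starts soon after stimulation or tissue handling, lay below WT nearly as a group. Of 36 genes 35 were tested, 31 below 0 and 4 above, with a median of -0.44, and 9 were lower by 1.5-fold, against 0.895% of all tested entries. Klf4, a quiescence-associated factor, was at 18.1 and 44.8 FPKM, a ratio of -1.26, with WT 2.48 times higher (counting interval 2.32 to 2.65). Rgs1, a regulator of chemokine receptor signalling, was at 33.3 and 66.2 FPKM (-0.97), the kinase gene Sik1 at 12.1 and 24.0 FPKM (-0.94) and Klf6 at 51.1 and 97.9 FPKM (-0.92). Cd69, an early activation marker that retains cells in lymph nodes, was at 60.5 and 97.3 FPKM (-0.68). Genes known to be induced by the T cell receptor were divided. The Nr4a genes were below WT, with Nr4a1 at 57.9 and 79.7 FPKM (-0.45), Nr4a2 at 6.18 and 12.5 FPKM (-0.91) and Nr4a3 at 12.4 and 19.0 FPKM (-0.58). The Egr genes were level between the libraries. Egr1 was at 88.8 and 88.1 FPKM, Egr2 at 29.7 and 28.1 FPKM and Egr3 at 19.93 and 19.97 FPKM, with ratios of 0.01, 0.08 and -0.00. Of 12 tested dual-specificity phosphatases and Sprouty-type inhibitors, which restrain MAP kinases, 9 lay below 0. Against 0.895% of all tested entries, 2 were lower by 1.5-fold. These were Dusp1, at 202 and 313 FPKM (-0.63), and Dusp5, at 29.8 and 45.9 FPKM (-0.61).

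Chaperone and stress lists leaned the same way by smaller amounts. Of 22 tested heat shock chaperones 17 lay below 0 with a median of -0.09, from Hspa1b at 93.7 and 126 FPKM (-0.42) to Fkbp4 at 41.0 and 38.5 FPKM (0.09). The inducible copies Hspa1a and Hspa1b together held 154 and 205 FPKM. Of 23 unfolded protein response genes 19 lay below 0 with a median of -0.06. The lowest was Dnajb9, an endoplasmic reticulum co-chaperone, at 41.0 and 61.4 FPKM (-0.57), and the chaperone Hspa5 was at 359 and 456 FPKM (-0.34). No member of either list passed 1.5-fold.

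Promoters of 4 genes with ratios below 0 are shown. They were picked because their products are inhibitors or secreted factors whose regulation by NF-kB and AP-1 is well studied. Of the 4, Nfkbia was not lower by 1.5-fold. The windows run from 250 bases before to 50 bases after the RefSeq start on GRCm38.p6, and capitals mark matches, on either strand, to the AP-1 motif TGANTCA, the cyclic AMP response element (CRE) TGACGTCA or the kappaB motif. They lie at chr10:19015361-19015660 on the minus strand for Tnfaip3, chr12:55492598-55492897 on the minus strand for Nfkbia, chr5:91139349-91139648 on the plus strand for Areg and chr11:4257318-4257617 on the plus strand for Lif.
Tnfaip3: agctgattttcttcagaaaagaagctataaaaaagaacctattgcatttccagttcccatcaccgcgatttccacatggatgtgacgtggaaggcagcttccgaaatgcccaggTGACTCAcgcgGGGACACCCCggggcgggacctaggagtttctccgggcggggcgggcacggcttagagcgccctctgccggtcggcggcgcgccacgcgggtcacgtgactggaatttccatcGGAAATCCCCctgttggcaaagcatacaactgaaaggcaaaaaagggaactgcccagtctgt
Nfkbia: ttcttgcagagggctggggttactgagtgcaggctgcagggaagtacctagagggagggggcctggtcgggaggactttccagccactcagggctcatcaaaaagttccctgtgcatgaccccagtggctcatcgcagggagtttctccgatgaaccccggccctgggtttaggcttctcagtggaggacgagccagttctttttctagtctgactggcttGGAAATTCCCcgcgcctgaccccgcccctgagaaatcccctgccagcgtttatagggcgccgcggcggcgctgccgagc
Areg: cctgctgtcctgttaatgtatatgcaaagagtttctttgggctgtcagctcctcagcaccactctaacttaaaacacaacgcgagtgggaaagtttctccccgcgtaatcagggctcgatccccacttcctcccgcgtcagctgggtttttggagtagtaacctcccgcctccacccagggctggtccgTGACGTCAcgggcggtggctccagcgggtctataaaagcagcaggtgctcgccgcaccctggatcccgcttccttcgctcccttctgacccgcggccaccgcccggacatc
Lif: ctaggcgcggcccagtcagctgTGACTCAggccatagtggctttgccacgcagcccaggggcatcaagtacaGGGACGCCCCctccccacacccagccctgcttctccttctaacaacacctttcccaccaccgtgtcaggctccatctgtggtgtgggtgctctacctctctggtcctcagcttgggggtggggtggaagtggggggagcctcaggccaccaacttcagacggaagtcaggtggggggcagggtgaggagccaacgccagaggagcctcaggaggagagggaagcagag
Counted from the RefSeq start to the first base of each match, the Tnfaip3 window held an AP-1 match at -136 and kappaB matches at -125 and -12. The Nfkbia window held a kappaB match at -29, that of Areg a CRE at -61, and that of Lif an AP-1 match at -228 and a kappaB match at -178. No matches overlapped. Among 12 windows searched in this way, those shown here all held a match. The windows of Il17f, Il22, Junb, Zc3h12a and Klf4 held no match to these motifs or to the CArG box.

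Over all tested genes the motifs were not rare. Of 5071 windows, 10.3% held a kappaB match, 4.18% an AP-1 match, 3.69% a CRE and 1.16% a CArG box. Among the 38 windows of genes lower by 1.5-fold, 7 (18.4%) held a kappaB match, 3 (7.89%) an AP-1 match and 3 (7.89%) a CRE. Among the 35 windows of genes higher by 1.5-fold the counts were 5 (14.3%), 2 (5.71%) and 3 (8.57%). The counts of lower and higher genes thus differed by 2 windows at most for these 3 motifs. A match describes the letters of the window and is not a measured binding site.

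Th17 cytokine transcripts showed the lowest ratios of any list. Il17f was at 0.805 FPKM in MyD88 T-KO and 6.67 in WT, an estimated 20.5 and 178 fragments, a ratio of -2.09. The WT value was 8.28-fold that of MyD88 T-KO (counting interval 5.13 to 13.4). Il17a was at 1.73 and 7.60 FPKM, a ratio of -1.66, and WT was 4.40 times higher (3.15 to 6.21). Il22, which acts on epithelia, was far more abundant at 64.3 and 169 FPKM. Reads of Il22 and its near-identical copy Iltifb may be divided between the copies, and their sum was 70.3 and 184 FPKM, a ratio of -1.38. In RNA from pooled cells, fewer cells of a type and less RNA per cell cannot be told apart.

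The rest of the Th17 list was less far from WT. Of 23 members 15 were tested, 12 below 0 and 3 above, with a median of -0.19. Against 0.895% of all tested entries, 4 were lower by 1.5-fold, the 3 cytokines among them. Rora, a transcription factor of Th17 cells, was at 12.5 and 19.0 FPKM (-0.57), and the chemokine receptor Ccr6 at 23.6 and 31.4 FPKM (-0.40). Il21, a cytokine shared by Th17 and Tfh cells, was not lower, at 91.4 and 89.3 FPKM (0.03). Some markers of other IL-17 producers were lower in MyD88 T-KO as well. Cd163l1, a marker of gamma delta T cells, was at 3.02 and 4.81 FPKM (-0.53) and 5830411N06Rik at 1.10 and 2.07 FPKM. Others were below 1 FPKM in both libraries, Sox13 at 0.0113 and 0.0110 FPKM and Zbtb16 at 0.478 and 0.506 FPKM. The list had 2 of 8 measured members tested, Blk, also a B cell gene, and Il7r, which many T cells express, and it summed to 28.3 and 26.7 FPKM. Without those 2 the other 6 members summed to 9.61 and 12.8 FPKM. Their part in the cytokine values was not tested.

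Th1 genes were lower on the same scale. Of 23 members 13 were tested, 12 below 0 and 1 above, with a median of -0.36. Against 0.895% of all tested entries, 3 were lower by 1.5-fold. Ccl5, a chemokine for T cells and monocytes, was at 19.1 and 47.8 FPKM (-1.28), Ifng at 6.07 and 12.2 FPKM (-0.90) and Tnf at 14.1 and 23.9 FPKM (-0.72). For Ifng, WT was 2.02 times higher (counting interval 1.66 to 2.44). The chemokine receptor Cxcr6 was at 20.5 and 29.7 FPKM, a ratio of -0.51. The Th1 lineage factor Tbx21 stayed below the minimum at 2.95 and 3.87 FPKM. Stat4, which transmits IL-12 signals, had a ratio of -0.06. NK cells also make Ifng and Ccl5. Of the 13 NK and innate lymphoid markers 2 were tested, Nkg7, a cytotoxic granule gene that effector T cells express too, at 20.3 and 24.7 FPKM (-0.27), and Klrb1c at 5.46 and 5.64 FPKM (-0.04). The defining receptor Ncr1 was at 0.233 and 0.157 FPKM, and the list summed to 42.4 and 42.8 FPKM. The part of these cells in the Th1 values was not tested.

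The Th2 list, with 8 of 16 members tested, had 6 below 0 and a median of -0.11. Il4 was at 32.3 and 45.0 FPKM (-0.47), Nfil3, an AP-1-like factor also counted above, at 35.4 and 56.4 FPKM (-0.66), and the lineage factor Gata3 at 41.4 and 45.4 FPKM (-0.13). Il13 stayed below the minimum at 0.410 and 1.97 FPKM. Among 19 tested secreted cytokines and growth factors, 12 lay below 0 and the median was -0.04. Against 0.895% of all tested entries, 5 were lower by 1.5-fold. These 5 were Ccl5, Areg, Lif, Tnf and Il10. Areg, which encodes the growth factor amphiregulin, was at 8.15 and 19.1 FPKM (-1.14), and Lif, a cytokine of the IL-6 family, at 12.1 and 26.0 FPKM (-1.04). Of the other ligands of the TNF family, Cd40lg was at 77.2 and 91.3 FPKM (-0.24), Tnfsf8 at 170 and 181 FPKM (-0.09), Ltb at 212 and 214 FPKM (-0.02) and Lta at 7.65 and 6.18 FPKM (0.27).

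**Figure D3:**
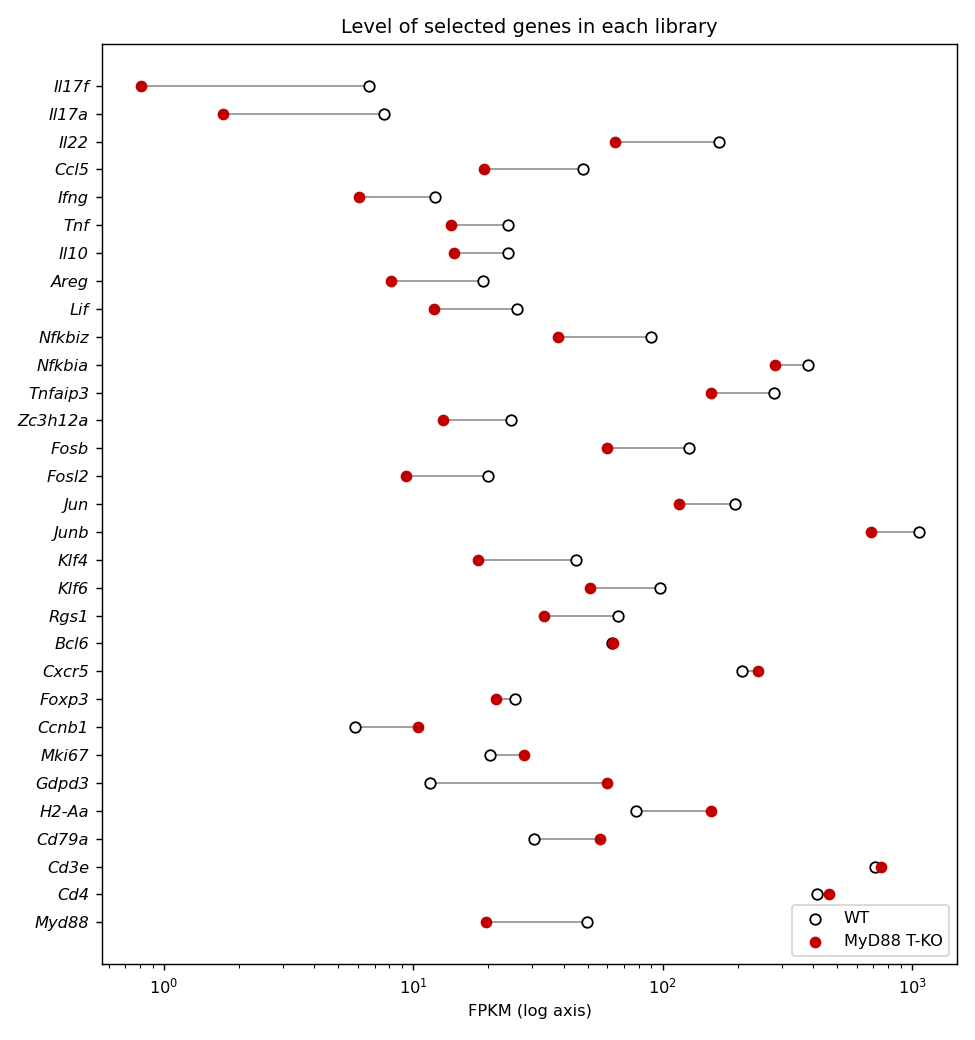
FPKM on a log axis (x axis) of selected genes (y axis) in the WT library (open circles) and the MyD88 T-KO library (red circles), 1 library per group. The cytokine, NF-kB and AP-1 genes drawn lie lower in MyD88 T-KO, Bcl6, Cd3e and Cd4 nearly coincide, and Gdpd3 and H2-Aa lie higher. Members of those lists with ratios above 0, such as Il21, Lta, Nfkb1 and Maf, are not drawn.

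Follicular helper genes, of the T cells that support germinal centres, were near WT. All 27 members were tested, 18 above 0 and 9 below, with a median of 0.02 and no member past 1.5-fold. Bcl6, the lineage factor, was at 63.3 and 62.4 FPKM (0.02), and the homing receptor Cxcr5 at 241 and 208 FPKM (0.21). Id3 had the highest ratio of the list at 72.8 and 55.7 FPKM (0.38), and its relative Id2, an inhibitor of E proteins linked to effector cells, was at 45.5 and 76.7 FPKM (-0.74). Cxcr4, a germinal centre homing receptor, had the lowest at 152 and 197 FPKM (-0.38). Regulatory T cell genes were split, with 12 of 22 tested below 0 and a median of -0.03. Against 0.895% of all tested entries, 2 were lower by 1.5-fold. Those 2 were Ctla4, a coinhibitory receptor, at 168 and 266 FPKM (-0.66), and the anti-inflammatory cytokine Il10, at 14.6 and 23.9 FPKM (-0.68). Foxp3, the lineage factor, was at 21.3 and 25.5 FPKM, a ratio of -0.24.

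Other T cell programs had medians near that of all tested entries. Of 23 tested cytokine receptor chains 12 lay above 0, with a median of 0.00, from Il12rb1 at 11.5 and 15.1 FPKM (-0.36) to Il10ra at 12.0 and 8.52 FPKM (0.45). The 41 tested interferon-stimulated genes had a median of -0.03 with no member past 1.5-fold. The naive and memory list, with 23 tested, had a median of 0.04, from Id2 to Igfbp4 at 13.3 and 9.04 FPKM (0.51). Chemokine receptors and integrins had a median of -0.02 over 24 tested members. Of 21 tested apoptosis regulators 15 lay below 0 with a median of -0.11. Against 0.895% of all tested entries, 1 was lower by 1.5-fold, the BH3-only gene Pmaip1, at 9.54 and 15.9 FPKM (-0.68).

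Mitotic genes lay above WT in MyD88 T-KO by small folds. Of 55 G2/M genes 47 were tested, 45 above 0 and 2 below, with a median of 0.34, against 0.01 for all tested entries, and 1 member was higher by 1.5-fold, against 0.996% of all tested entries. That member was Ccnb1, which encodes cyclin B1, at 10.5 and 5.84 FPKM (0.74), with MyD88 T-KO 1.79 times higher (counting interval 1.56 to 2.06). Plk1, a mitotic kinase, was at 17.7 and 12.1 FPKM (0.52), and the proliferation marker Mki67 at 27.9 and 20.3 FPKM (0.44). S phase genes shared the direction with a smaller median. Of 48 tested, 41 lay above 0 with a median of 0.17, led by thymidine kinase Tk1 at 21.8 and 14.0 FPKM (0.61). Summed FPKM were 1205 and 1008 for the G2/M list and 1397 and 1283 for the S phase list.

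The regulators of cell cycle entry were divided. Of 22 tested drivers and inhibitors, 11 lay above and 11 below 0, with a median of -0.01. Ccnd2, which encodes cyclin D2, was at 122 and 87.9 FPKM (0.47), and the CDK inhibitor Cdkn2c at 37.4 and 28.4 FPKM (0.39). Myc was at 16.4 and 20.5 FPKM (-0.30), and its antagonist Mxd1 at 13.1 and 18.6 FPKM (-0.47), whereas the related Mxd3 was at 8.90 and 5.45 FPKM (0.62). Germinal centre B cells divide as well, and the summed FPKM of B cell markers were 1327 in MyD88 T-KO and 808 in WT. Their part in the mitotic values was not tested.

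Metabolic lists showed shifts of at most 0.13 in the median. Of 65 tested respiratory chain genes 58 lay above 0 with a median of 0.08. Ndufb2, a complex I subunit, at 57.3 and 36.8 FPKM (0.62), was the 1 member higher by 1.5-fold, against 0.996% of all tested entries. Of 71 ribosomal protein genes 55 lay above 0 with a median of 0.08, and of 21 sterol synthesis genes 17 with a median of 0.13, from Insig1 at 22.8 and 28.6 FPKM (-0.31) to Sqle at 7.11 and 5.12 FPKM (0.41). Glycolysis and glucose uptake genes had 8 of 20 above 0 and a median of -0.04, with the glucose transporter Slc2a1 at 22.1 and 28.5 FPKM (-0.35). The 32 ribosome biogenesis genes had a median of 0.00.

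Markers of B cells had higher FPKM in MyD88 T-KO despite the sort on CD4+ cells. Of 29 markers measured, 25 were tested, all 25 above 0, with a median of 0.83. Against 0.996% of all tested entries, 21 were higher by 1.5-fold. The summed FPKM given above are a fold of 1.64. H2-Aa, an MHC class II chain, was at 156 and 78.1 FPKM (0.99), and Cd79b, a chain of the B cell receptor, at 44.6 and 22.7 FPKM (0.95). The 4 tested members short of 1.5-fold were Cd22 (43.0 and 41.0 FPKM), Cd37 (224 and 202 FPKM), Pax5 (6.75 and 5.27 FPKM) and H2-Ob (21.7 and 14.6 FPKM). Cd37 is also expressed by T cells.

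Both CD8 T cell markers stood in the same direction, Cd8a at 5.02 and 2.28 FPKM (0.88) and Cd8b1 at 16.9 and 9.16 FPKM (0.82). The macrophage and dendritic cell list had 5 of 24 genes tested, among them Lyz2 at 15.0 and 7.25 FPKM (0.96), while its defining markers were near 0: Csf1r was at 0.607 and 0.322 FPKM, Emr1 (F4/80) at 0.134 and 0.0559 FPKM and C1qa at 0.410 and 0.598 FPKM. The neutrophil genes S100a8 and S100a9 had ratios of 0.16 and 0.22. The plasma cell gene Igj was at 15.7 and 7.96 FPKM (0.90), and Tnfrsf17 was at 0 in both. Among stroma and endothelium markers 1 of 14 was tested, Pecam1, at 48.8 and 52.1 FPKM. The X-linked Xist was at 47.7 and 42.5 FPKM. The hemoglobin gene Hba-a2 was at 13.0 and 6.01 FPKM (1.00), with reads that may be divided among hemoglobin copies. The part of these other cells in the remaining results was not tested. No lower entry stood on a list of other cells, but members below 5 FPKM could not be called. Among those were 11 of 13 NK and innate lymphoid markers and 6 of 8 measured gamma delta and innate-like type 17 markers.

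**Figure D4:**
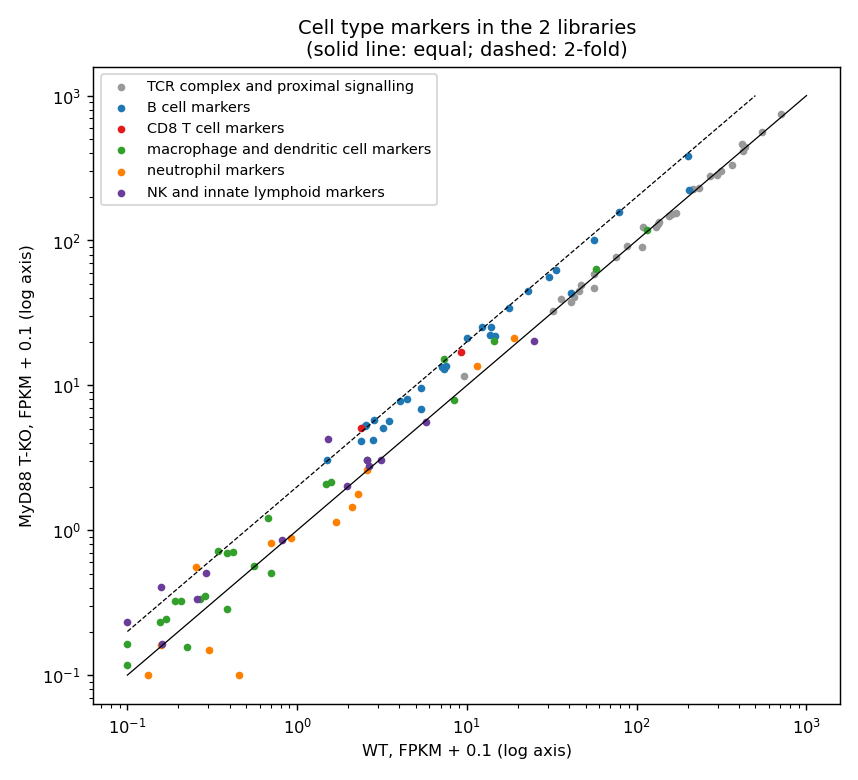
FPKM with 0.1 added in the MyD88 T-KO library (y axis) against WT (x axis), both on log axes, for T cell receptor genes and for markers of other cells. T cell receptor genes follow the line of equality, and most B cell markers lie between it and the dashed 2-fold line or near that line.

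Genes next to the deleted locus were examined because a targeted region can carry flanking DNA or affect its neighbours. Within 5 Mb of Myd88 on chromosome 9, 41 other tested genes had a median ratio of 0.01, with 18 below 0. By 1.5-fold none of them was higher and 1 was lower, against 0.996% and 0.895% of all tested entries. The 396 tested genes elsewhere on chromosome 9 had a median of 0.02, and the 7495 on other chromosomes 0.01. The nearest genes were Acaa1a, with a ratio of 0.01, and Oxsr1, which encodes a stress-responsive kinase, at 46.4 and 58.6 FPKM (-0.33). The lower gene was Csrnp1, an immediate early gene also counted on that list, at 68.8 and 115 FPKM (-0.74).

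**Figure D5:**
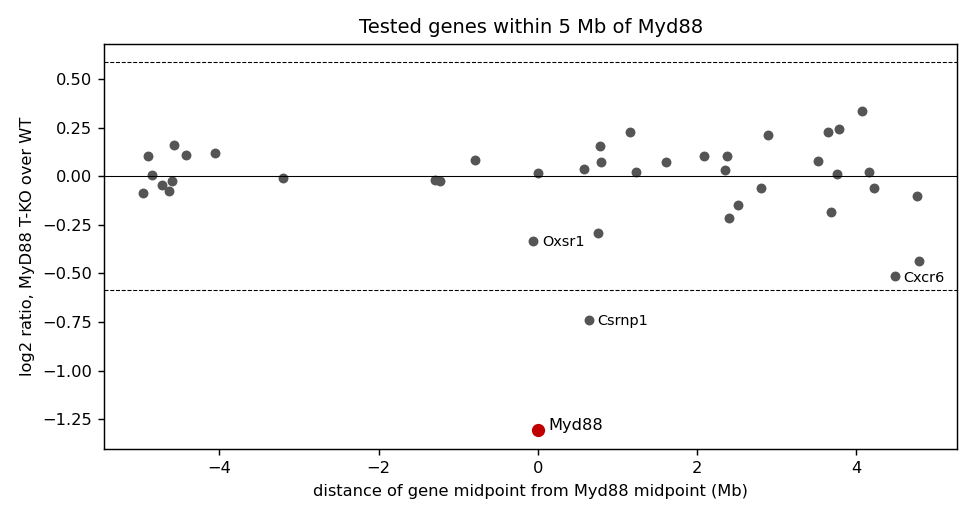
Log2 ratio of MyD88 T-KO over WT (y axis) of the 41 tested genes within 5 Mb of Myd88 against their distance from it in Mb (x axis), with Myd88 in red and dashed lines at 1.5-fold. Apart from Myd88, Csrnp1 is the point past 1.5-fold.

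The genes with the most extreme ratios were in part outside all lists. Camk2b, a subunit of a calcium-dependent kinase, had the lowest ratio once small RNA genes were left out, at 1.57 and 10.1 FPKM (-2.11), with WT 6.44 times higher (counting interval 5.37 to 7.76). Gem, a small GTPase that inhibits calcium channels, was at 13.8 and 28.3 FPKM (-0.99). At the other end, Gdpd3, a lysophospholipase D, was at 59.9 and 11.6 FPKM (2.27), with MyD88 T-KO 5.16 times higher (4.55 to 5.85). Gstp2, a glutathione transferase, was at 22.8 and 8.38 FPKM (1.35), and Erdr1 at 37.8 and 12.4 FPKM (1.53), both with near-identical copies that may divide reads.

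Some entries were listed at or near 0 in 1 library, and no fold is given for them. Oaz1-ps was at 12.6 FPKM in MyD88 T-KO and listed at 0 in WT. Hbb-b2 was at 5.51 FPKM and listed at 0.00589 in WT. Of the small RNA genes, Mir30c-1 was at 338 FPKM and listed at 0 in WT, and Snora28 was listed at 0 in MyD88 T-KO and at 6.04 FPKM in WT.

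The series holds a library labelled IL6ra T-KO, from mice whose T cells were to lack the alpha chain of the IL-6 receptor, otherwise handled alike. Il6ra itself was not lower there, at 65.1 FPKM against 57.1 in WT. It was compared with the same WT library, so its values are set beside those above with no measure of likeness between the comparisons. Myd88 was at 34.2 FPKM there against 51.0 in the WT values of that table, a ratio of -0.56. The ratios of Il17f and Il17a were -2.82 and -1.98 there, beside -2.09 and -1.66 in MyD88 T-KO. That of Il22 was -5.41, beside -1.38, and that of Il1r1 was -2.36, beside -0.14. Of the lower feedback and AP-1 genes, Nfkbiz had -0.75 beside -1.21, Tnfaip3 -0.88 beside -0.84, Fosb -0.47 beside -1.08 and Fosl2 -1.25 beside -1.01. Junb had -0.98 beside -0.63, Jun -0.96 beside -0.73, Fos -0.77 beside -0.70 and Nfkbia -0.76 beside -0.43. Areg had -1.77 beside -1.14 and Lif -1.91 beside -1.04, while Klf4 had -0.57 beside -1.26 and Klf6 -0.54 beside -0.92. All of these genes were thus below the shared WT library in both knockout libraries. The mitotic genes Mki67 and Plk1 had 0.69 and 0.70 beside 0.44 and 0.52, and the B cell markers Cd79b and H2-Aa 0.59 and 0.45 beside 0.95 and 0.99, so these genes were above the shared WT library in both knockout libraries. Some genes had ratios of opposite sign in the library labelled IL6ra T-KO. Ifng was at 1.09 beside -0.90, Ccl5 at 0.67 beside -1.28, Il10 at 0.43 beside -0.68, Camk2b at 0.44 beside -2.11 and Gdpd3 at -3.16 beside 2.27. Whether these ratios differ between the knockouts beyond the variation between mice could not be tested with 1 library each.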

How the data were processed

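PolyA-selected RNA of 1 WT and 1 MyD88 T-KO library of pooled sorted cells was measured, grouped by title. The authors deposited FPKM per gene (mm10), made with TopHat and Cufflinks per the submitters' processing notes. The sources used here state no versions. The deposited table spreads over 4 sheets, which were joined. The deposited fold changes and p-values were not used. Cufflinks can share fragments among isoforms and copies, so values of near-identical genes are uncertain.

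From the FPKM, log2((MyD88 T-KO + 1)/(WT + 1)) was computed for entries of at least 5 FPKM in either library, which understates differences of low genes. With 1 library per group no test was made. Depth was estimated from low genes, whose FPKM fall on steps of 1 fragment (200 and 228 genes in the lowest step). The step was taken as the median within a preset range, which bounds the estimate. Clopper-Pearson 95% counting intervals use fragments estimated from FPKM, transcript length and that depth. The length was that of the longest protein-coding transcript, or of the longest transcript where none was protein-coding. Intervals are thus too narrow for genes read mainly from shorter transcripts. The WT values of the 2 tables of the series differ by a median factor of 1.02, and each knockout library was compared within its own table. No column belonged to another series (0).

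Members and the 39 gene lists were chosen with earlier results of these data known. Named genes are Myd88, the 15 highest and 15 lowest ratios (small RNA, predicted and several-symbol entries and receptor segments left out), up to 4 members per list and direction, and a set of cytokine, receptor and signalling genes. 5830411N06Rik, Acaa1a, Batf, C1qa, Cd163l1, Cd22, Cd37, Cd3e, Cd69, Csf1r, Csrnp1, Egr3, Emr1, H2-Ob, Il13, Il6ra, Ltb, Mafk, Mir30c-1, Ncr1, Nfkb2, Nr4a1, Nr4a2, Nr4a3, Oxsr1, Pax5, Rel, Rela, Relb, Rora, Snora28, Sox13, Stat4, Tlr1, Tnfrsf17, Tnfsf8 and Zbtb16 were named after their values were seen. Some genes the rule names are not reported here. Promoter windows and motif matches came from RefSeq (GRCm38.p6), for 12 of 14 genes asked for. Calculations were tested on simulated data and used Python 3.11.15, NumPy 2.4.6, pandas 2.3.3, SciPy 1.17.1 and Matplotlib 3.10.9.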

Additional observations from a re-analysis of the deposited data

How the results depend on the processing

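The counts past a fold depend on how low FPKM are treated. With a pseudocount of 0.1 FPKM, 27 entries were higher by 2-fold (15 with 1 FPKM) and the B cell median was 0.88. With one of 5 FPKM, 36 were higher by 1.5-fold (79), 10 lower by 2-fold (19), and the medians of the G2/M and B cell lists were 0.24 and 0.56. A minimum of 10 FPKM left 45 higher by 1.5-fold. With no minimum 124 were higher and 108 lower (71) by 1.5-fold, and the median of the IL-1 family and Toll-like receptor list was 0.0019 instead of -0.14, since all its low members then count. Without small RNA, predicted and several-symbol entries, receptor segments and markers of other cells, 42 were higher by 1.5-fold and 4 by 2-fold. Rescaling the MyD88 T-KO library to a median ratio of 0, over all tested entries or over the T cell receptor list (factors 0.991 and 1.00), moved no count by over 1.5 times. The first lowered every ratio slightly, so that some values just above 0 came to lie below it, among them the ratios of 4 named genes. Of 257 named genes, 33 moved by more than their counting error (or a fixed margin where none could be made) with 5 FPKM added and 4 with 0.1, and no gene past 1.5-fold changed sign. No paired analysis was possible because each group has 1 library, and for the same reason no replicate could be left out.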

Other observations

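Genes on no list, chosen after their values were seen, filled part of both called sets. Of the 71 lower entries, 34 (47.9%) stood on a list and 29 were genes on no list. The lists held 760 (9.58%) of all 7933 tested entries, so entries on no list were the larger part there. Tnfrsf25, the receptor for the cytokine TL1A, was at 9.61 FPKM in MyD88 T-KO and 17.6 in WT (-0.81), Tiparp, a target of the aryl hydrocarbon receptor, at 7.22 and 14.0 FPKM (-0.86), and the ubiquitin ligase Siah2 at 23.0 and 39.5 FPKM (-0.76). Odc1, which encodes ornithine decarboxylase, was at 37.6 and 59.0 FPKM (-0.64). The lower genes also had short loci, with a median span of 8818 bases, beside 10074 bases for the higher and 23525 bases for all tested genes.

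Of the 79 higher entries, 32 (40.5%) stood on a list, against 9.58% of all tested entries, and 38 were genes on no list. Several are known from B cells: Tnfrsf13c, the BAFF receptor, was at 6.35 and 2.92 FPKM (0.91), Cd72 at 8.28 and 4.80 FPKM (0.68), the kinase genes Syk at 6.84 and 3.80 FPKM (0.71) and Lyn at 7.47 and 4.32 FPKM (0.67), and Icosl, the ligand of ICOS, at 8.01 and 4.75 FPKM (0.65). Scd1, a fatty acid desaturase, was at 17.9 and 9.64 FPKM (0.83).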
